A study of Mus musculus with 141 samples.

Results

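A set of 10 heart muscle genes were followed in lung, liver and kidney of 47 mice: *Myh6*, *Myl4*, *Myl7*, *Tnnt2*, *Tnni3*, *Actc1*, *Nppa*, *Sln*, *Ryr2* and *Pln*. They are 10 of the 24423 genes measured and were chosen by name, for what they are known to do in heart muscle, at a time when earlier results of these data were known. The mice were from 47 strains of the Collaborative Cross (CC), a panel of recombinant inbred mice descended from a shared set of founder strains, and each strain contributed 1 male, 8 to 12 weeks old. All mice ate the NTP 2000 diet and spent 6 h per day on weekdays, for 2 weeks, in chambers supplied with clean air, so all 3 tissues share this treatment. RNA-seq of ribosome-depleted total RNA gave 1 library per tissue and mouse, 47 for each tissue, from RNA with an integrity value of at least 7.0. Strain, mouse and dissection cannot be told apart with 1 mouse per strain, and the sources used here do not say whether large vessels or other tissue were trimmed from the lungs.

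In rodents the wall of the pulmonary veins carries a sleeve of striated heart muscle that runs from the left atrium into the lung. This muscle is of the atrial kind, and atrial and ventricular cardiomyocytes use different versions of the same parts: atrial cells use the myosin light chains encoded by *Myl7* and *Myl4*, secrete the hormone encoded by *Nppa*, and restrain the calcium pump of the sarcoplasmic reticulum with sarcolipin, encoded by *Sln*, where ventricular cells use *Myl2*, *Myl3* and phospholamban, encoded by *Pln*. The other genes followed here encode the alpha myosin heavy chain (*Myh6*), cardiac troponin T (*Tnnt2*), cardiac troponin I (*Tnni3*), cardiac alpha-actin (*Actc1*) and the calcium release channel of heart muscle (*Ryr2*). In whole tissue, fewer cells of a type and less RNA per cell cannot be told apart.

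The lungs carried abundant RNA of 6 of the 10 genes, and of *Nppa* in some lungs only. These 7 are called the abundant genes below. Most livers held very little of them, and so did the kidneys, apart from *Ryr2*, which was read in every kidney. Lung libraries held 2829104 to 17585682 counts, liver libraries 1738046 to 42158454 and kidney libraries 3046695 to 15028553. Levels are given as counts, as TPM (transcripts out of a fixed total, corrected for transcript length, so that genes can be compared) or as CPM (counts out of a fixed total), the latter after TMM scaling, which takes trimmed mean log ratios between libraries. The lung label was checked with *Sftpc* of alveolar type II cells, with a median lung level of 18570 TPM, and *Scgb1a1* of club cells, with 61080 TPM. Their mean TPM in liver was 0.0984% and 0.0794% of that in lung. Ribosomal RNA precursor *Rn45s* took 0.695% to 71.7% of the counts of a lung (median 18.0%), and TPM of all other genes in a lung is lower where it is high.

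The promoters of 4 of the genes whose lung levels moved together across mice (values given further on) are shown here. These 4 were picked because they hold short sequences known from heart gene control, and not all such genes do. Each is the 250 bases before the transcription start in RefSeq (GRCm38.p6), 5′ to 3′ on the strand of the gene. *Nppa* lies on the plus strand at chr4:148000472-148000721, and the other windows are on the minus strand, *Myl7* at chr11:5898783-5899032, *Actc1* at chr2:114052876-114053125 and *Tnni3* at chr7:4522529-4522778.
Nppa: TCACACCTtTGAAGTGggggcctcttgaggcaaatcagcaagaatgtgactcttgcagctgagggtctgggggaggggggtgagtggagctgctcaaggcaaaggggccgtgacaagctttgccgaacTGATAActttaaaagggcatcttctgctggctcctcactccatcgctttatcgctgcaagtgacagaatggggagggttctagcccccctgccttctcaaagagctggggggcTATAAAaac
Myl7: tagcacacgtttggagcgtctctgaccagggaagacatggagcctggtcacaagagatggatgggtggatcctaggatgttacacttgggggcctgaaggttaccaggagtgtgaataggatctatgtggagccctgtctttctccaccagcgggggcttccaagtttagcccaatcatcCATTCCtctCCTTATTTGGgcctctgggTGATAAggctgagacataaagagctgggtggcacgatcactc
Actc1: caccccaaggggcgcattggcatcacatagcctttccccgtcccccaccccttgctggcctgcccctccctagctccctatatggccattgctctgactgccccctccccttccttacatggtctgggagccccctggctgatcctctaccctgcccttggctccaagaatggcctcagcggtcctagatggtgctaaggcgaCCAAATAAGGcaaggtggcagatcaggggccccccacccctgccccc
Tnni3: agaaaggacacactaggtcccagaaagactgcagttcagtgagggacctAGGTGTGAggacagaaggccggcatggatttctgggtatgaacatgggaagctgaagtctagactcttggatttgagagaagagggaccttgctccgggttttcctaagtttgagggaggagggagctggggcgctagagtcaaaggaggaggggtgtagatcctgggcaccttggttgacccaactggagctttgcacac
Capitals mark matches on either strand. The GATA motif was searched as AGATAA and as AGATAG, and with a leading thymine as TGATAA and then also as TGATAG. The letters TNAAGTG stand for the Nkx2-5 motif, and for T-box factors the letters were AGGTGTGA. The M-CAT element was searched as CATTCC, the TATA box as TATAAA, and the serum response element CArG by name. In *Nppa*, from the 5′ end, these are T-box, Nkx2-5, GATA and TATAAA. In *Myl7* they are M-CAT, CArG and GATA, in *Actc1* a CArG match, and in *Tnni3* a T-box match.

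Windows were found for 9 of the 10 genes, 10 windows in all, and none for *Sln*. AGGTGTGA was in 2 of the 10 windows and in 1.12% of all 32851 windows of the same length, and CArG was in 2 (*Actc1* and *Myl7*) against 1.47%. GATA motifs were in 5 windows against 26.5%, CATTCC in 3 against 12.6%, TNAAGTG in 1 against 10.1%, TATAAA in 2 against 12.4%, and the E-box CANNTG (not in capitals) in 8 against 66.2%. The MEF2 motif was in 0 of the 10 windows and in 0.508% of all. *Myl4*, whose lung level moved with those of the genes shown, had no match to any of these motifs, and *Ryr2* had only an E-box. The GATA matches were in *Myl7* and *Nppa*, and also in *Myh6*, *Pln* and *Tnnt2*, which had few counts in lung. These are matches of letters in 1 window and say nothing of binding.

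Among the contractile genes, the atrial regulatory light chain *Myl7* (chr11:5796640-5798785, NCBIM37, the mm9 build of the files) had the highest median. Its lung level was 51.7 TPM at the lowest, 448 TPM at the median and 1452 TPM at the highest. Lungs are named highest or lowest here and in the next paragraphs by TPM, unless TMM is named. The highest lungs were those of strains CC028 and CC012. The lowest was that of CC015, which had the highest share of *Rn45s*, and after TMM scaling that of CC029, at 8.05 CPM. Liver held 0 to 8 counts of *Myl7* and kidney 0 to 12, whereas every lung held at least 62, so the groups did not overlap.
The atrial essential light chain *Myl4* (chr11:104411977-104457067) ranged from 47.0 through a median of 290 to 1112 TPM in lung. It was again highest in CC028, followed by CC045, and lowest in CC031. After TMM scaling the lowest was CC029, at 15.1 CPM. Its maxima were 14 counts in liver and 20 in kidney, against at least 90 in every lung.
Cardiac alpha-actin *Actc1* (chr2:113873018-113879284), the actin of the heart thin filament, ranged from 55.1 through 286 to 794 TPM. One liver stood apart, that of CC041 with 103 counts, and the next liver held 11, whereas kidneys held at most 5 and lungs at least 172.
Cardiac troponin I *Tnni3* (chr7:4469907-4475831), the inhibitory subunit of the troponin complex, ranged from 28.3 through 166 to 643 TPM, with the highest level in CC045 and the lowest in CC024. After TMM scaling the highest was CC028, at 96.3 CPM, and the lowest CC029, at 7.63 CPM. No liver passed 4 counts and no kidney 7, and the lowest lung held 68.

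Both abundant genes of calcium handling were less restricted to lung. Sarcolipin *Sln* (chr9:53698058-53701651), a small inhibitor of the sarcoplasmic calcium pump, ranged from 8.63 through 103 to 361 TPM in lung and was highest in CC012. Its count was 0 in 29 livers and 38 kidneys, but the livers of CC012, CC031, CC041 and CC037 held 34, 23, 21 and 19 counts. After scaling, 29 of 47 lungs were above every liver and all were above every kidney.
The calcium release channel *Ryr2* (chr13:11645370-12199212) ranged from 4.44 through 28.6 to 94.9 TPM in lung, with CC012 and CC045 highest. In kidney it ran from 8 through 91 to 779 counts, or 0.42 through 1.70 to 12.0 TPM (highest in CC062 and CC005), and 38 of 47 lungs were above every kidney. Liver held a median of 2 counts and a maximum of 61, in CC035, below every lung after scaling.

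The atrial hormone gene *Nppa* (chr4:147374831-147376188) differed from mouse to mouse more than any of the others. Its lung level ran from 0.91 TPM in CC025 through a median of 13.3 to 1291 TPM in CC012. The second highest was 442 TPM in CC030, 11 lungs were above 100 TPM and 17 below 10 TPM. The ratio of *Nppa* to *Myl7* in TPM was 0.00158 in CC025, which had 578 TPM of *Myl7*, 0.0493 at the median and 1.002 in CC012. CC028, the lung with most *Myl7*, had 43.7 TPM of *Nppa*. Liver held at most 3 counts of *Nppa* and kidney at most 7.

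The other members were nearly unread in every tissue. *Pln* (chr10:53057492-53065805) reached 14 counts in lung with a median of 5, *Myh6* (chr14:55560758-55585764) reached 15 with a median of 2, and *Tnnt2* (chr1:137737452-137748837) had 0 counts in 46 lungs and 1 in the other. At most 3 counts were taken as not resolved, which left 29 lungs with *Pln* and 14 with *Myh6* above that floor. The files name more than 1 transcript for exactly these genes, 2 for *Pln*, 2 for *Myh6* and 9 for *Tnnt2*, and 1 transcript for each of the other 7. Per the study's methods, reads aligning to several places were not counted. Over all genes, 59.5% of the 18311 with 1 transcript and 45.2% of the 6112 with more had a median lung count above 3. The part of transcript number in the low values was not tested, so low counts of *Pln*, *Myh6* and *Tnnt2* say little about how much of their RNA the lungs held. Reads shared with another gene bear on *Myh6* alone to a large extent: 22.1% of its 50-base windows also occur in another gene, 1373 of them in *Myh7*, against at most 3.54% for the other members.

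**Figure D1:**
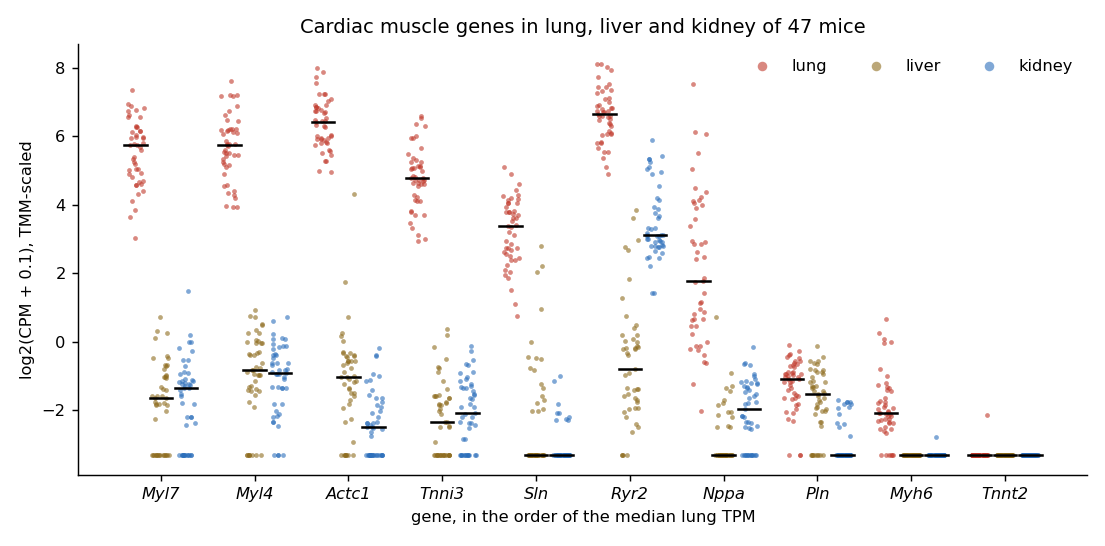
Level of each of the 10 genes in every library, as log2 of TMM-scaled CPM plus 0.1, for 47 lungs, livers and kidneys. Points are mice, bars are medians and the lowest row of points is a count of 0. *Myl7*, *Myl4*, *Actc1* and *Tnni3* of lung lie above all livers and kidneys, *Ryr2* of kidney reaches into the range of lung, and *Nppa* spans the widest range among lungs.

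In the tissue comparison (limma-voom with the mouse as replicate block, over 12127 genes that passed 1 CPM in 30% of libraries or more, called where the adjusted p was 0.1 or less and the log2 fold change 1 or more in size), 6 of the 10 genes could be tested. A gene with low counts in liver and kidney enters the test through its lung level and had to differ, so the count is a description: all 6 were higher in lung than in liver, where 31.2% of all tested genes were, and all 6 were higher in lung than in kidney, where 24.6% were. These shares depend on scaling. After TMM 3782 genes were higher in lung and 2875 in liver, and on total counts, where the median of all genes shifts by 1.37, 7465 and 1186. Against kidney 2988 were higher in lung and 2631 in kidney after TMM, and 4039 and 1836 on total counts, with a shift of 0.48. The 6 genes were higher in lung on both scales. Against liver, *Actc1* was higher by 7.65 on the log2 scale (SE 0.30, adjusted p = 1.04e-44), *Myl7* by 7.35, *Ryr2* by 7.12, *Tnni3* by 7.06 and *Myl4* by 6.66, each in 47 of 47 mice, and *Sln* by 5.37 in 46 of 47. Against kidney, *Actc1* was higher by 9.26 (SE 0.25, adjusted p = 9.11e-59), *Myl7* by 7.45, *Tnni3* by 7.18, *Sln* by 7.00 and *Myl4* by 6.87, each in 47 of 47 mice. *Ryr2* stood apart with a lung to kidney difference of 3.01 (SE 0.16, adjusted p = 2.43e-33), higher in lung in 46 of 47 mice. The limma fit gave an SE of 0.16 to 0.36 and an adjusted p of at most 5.47e-30 for all these differences.
The median difference of the 6 genes was 7.09 against liver and 7.09 against kidney, beside 0.07 and -0.02 over all tested genes. Levels did not overlap between lung and liver for *Myl4*, *Myl7*, *Tnni3*, *Actc1* and *Ryr2*, 5 of the 10, where 12.4% of all tested genes had every lung above every liver. Between lung and kidney they did not overlap for *Myl4*, *Myl7*, *Tnni3*, *Actc1* and *Sln*, against 9.29%. *Nppa* missed the filter. With genes kept where their mean was 1 CPM or more, limma gave a difference of 5.38 against liver (adjusted p = 8.4e-22) and 4.82 against kidney (adjusted p = 6.7e-26), and *Nppa* was higher in lung in 46 and 47 of 47 mice. Its mean was 13.7 CPM in lung, 0.0889 in liver and 0.193 in kidney. It passed that filter through lung and had to differ, so these values are a description as well.

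Between liver and kidney 3 of the 6 tested genes were called, beside 36.6% of all tested genes, which is no result about these few. *Ryr2* was lower in liver than in kidney by a log2 difference of -4.11 (SE 0.42, limma adjusted p = 5.83e-16), with 1 mouse the other way. *Actc1* was higher in liver by 1.62 (SE 0.33, adjusted p = 5.55e-06 by limma, 34 of 47 mice) and *Sln* by 1.63 (SE 0.36, adjusted p = 2.01e-05, 18 of 47 mice higher in liver). Both genes passed the filter through lung. *Actc1* was above 3 counts in 11 livers and 3 kidneys and *Sln* in 8 livers and 0 kidneys, so both differences are fitted values near the floor and rest on few livers. Scaling by total counts, which shifts the median of all genes by -0.88 in this comparison, left only *Ryr2* called. The differences of *Myl4*, *Myl7* and *Tnni3* were 0.21, 0.10 and 0.13 with adjusted p from 0.476 to 0.774, and their signs turned under other scalings.
The livers of CC031 and CC041 also held skeletal muscle RNA, with 486 and 205 counts of the fast myosin light chain *Mylpf* and 2651 and 906 of the fast myosin heavy chain *Myh1*. Without both strains the limma difference was 1.34 for *Actc1* (adjusted p = 3.1e-05) and 1.41 for *Sln* (adjusted p = 0.00011).

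The order of the levels in lung, by median TPM, was *Myl7*, *Myl4*, *Actc1*, *Tnni3*, *Sln*, *Ryr2*, *Nppa*, *Pln*, *Myh6* and *Tnnt2*. Of the 9 neighbouring pairs 7 differed (sign-flip permutation test within lungs, two-sided, 100000 draws, p of at most 0.05 unadjusted). *Myl7* was above *Myl4* in 41 of 47 lungs by a mean log2 ratio of 0.475 ± 0.443 (SD), with p = 1e-05, the smallest that the draws can give. *Myl4* was above *Actc1* in 29 lungs with a mean log2 ratio of 0.066 ± 0.552 (permutation p = 0.42), and *Ryr2* above *Nppa* in 26 with 0.231 ± 1.955 (permutation p = 0.42), so neither mean ratio passed the threshold. The places of *Pln*, *Myh6* and *Tnnt2* rest on counts near the floor.

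Each gene was set beside a partner of the same family that another muscle, or another heart chamber, uses. Among light chains the atrial forms led. The ventricular regulatory light chain *Myl2* had 0 counts in 24 lungs and at most 3 in 39, and *Myl7* was above it in 47 of 47 lungs. In the 8 lungs with more than 3 counts of both, the log2 ratio ran from 0.72 through 5.42 to 7.69. *Myl2* was read in 8 lungs, most in CC040 with 182 TPM, then CC028 with 30.4, CC032 with 25.1 and CC042 with 23.6 TPM. CC040 had a middling level of the 7 abundant genes, with a mean rank of 24.6 among 47 lungs. *Myl4* was above *Myl3*, which serves both ventricle and slow skeletal muscle, in 44 of 47 lungs with a median log2 ratio of 3.59. The range of *Myl3* was wide, from 0.32 through 18.4 to 370 TPM.
Among heavy chains *Myh7*, the slow myosin that slow skeletal muscle also uses, ran from 3.46 through 47.9 to 111 TPM. It was above *Myh6* in 47 of 47 lungs, with the limit on *Myh6* given above. No heart chamber was read from this pair.
Cardiac *Tnni3* was above fast skeletal *Tnni2* in 36 of 47 lungs, and *Tnni2* reached 812 TPM. *Actc1* was above smooth muscle actin *Acta2*, at a median of 230 TPM, in 31 of 47 lungs with a median log2 ratio of 0.17, so the levels overlapped widely, and it was above skeletal actin *Acta1* in 47. *Ryr2* was above the skeletal channel *Ryr1* in 41 of 47 lungs (median log2 ratio 3.80). *Nppa* was above *Nppb*, which never passed 3 counts in a lung, and *Sln* was above *Pln* in all 47 lungs. Of the 14 pairs the member was higher in most lungs in 10, and in 7 when only lungs with more than 3 counts of both genes were used. *Tnni1*, *Acta1*, *Nppb*, *Pln* and *Ryr3*, all below their partners, have more than 1 transcript named in the files.

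**Figure D2:**
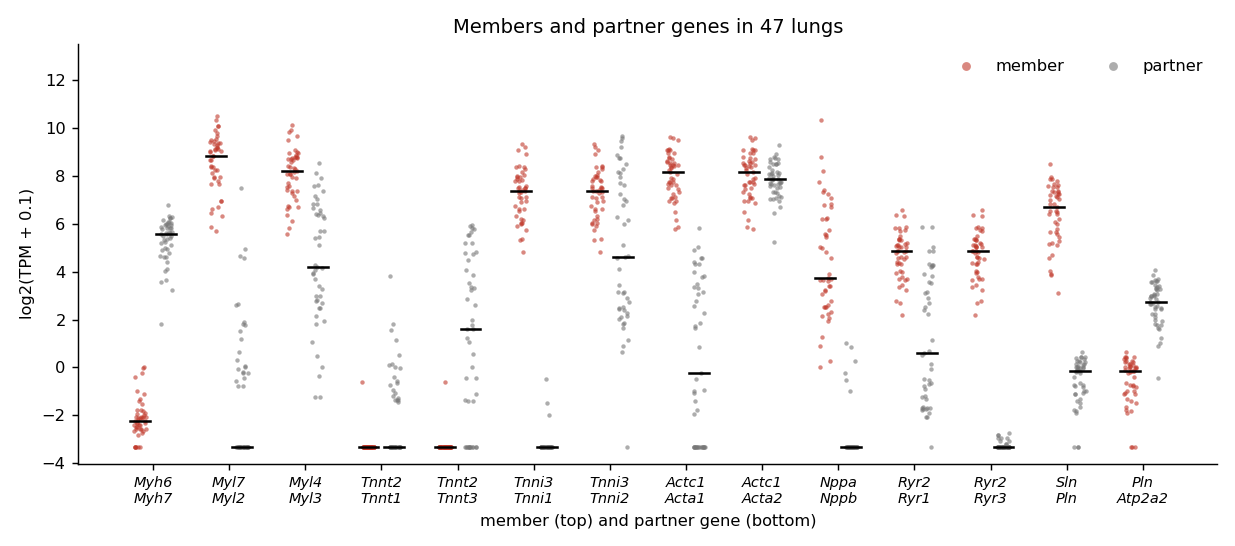
Level of each gene (red) and of a partner of the same family or function (grey) in 47 lungs, as log2(TPM + 0.1), with medians as bars. *Myl7* lies above *Myl2* in every lung, *Actc1* and *Acta2* overlap, and *Tnni2* and *Myl3* spread over a wide range.

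The level of the 7 abundant genes differed widely between lungs. On the TMM-scaled log2 CPM scale the SD over 47 lungs was 0.942 for *Myl4*, 0.968 for *Myl7*, 0.907 for *Tnni3*, 0.738 for *Actc1*, 0.985 for *Sln*, 0.777 for *Ryr2* and 2.19 for *Nppa*. The median SD over 11318 genes was 0.357, and among the 500 genes nearest in mean level each of these 7 was at the 96.6 percentile or above. Poisson counting error would give 0.381% (*Ryr2*) to 2.93% (*Sln*) of these variances, but 87.6% of that of *Myh6* and 86.9% of that of *Pln*. The highest lung exceeded the lowest 8.28-fold for *Actc1* and 20.5-fold for *Sln*, with *Myl4*, *Myl7*, *Tnni3* and *Ryr2* between. No such fold is given for *Nppa*, whose lowest lung held 2 counts. In kidney the SD of *Ryr2* was 1.06, at the 94.3 percentile of 10535 genes, and its levels in lung and kidney of the same mouse had Pearson's r = -0.045 (permutation p = 0.76) and Spearman's rho = 0.031.
The scale bears on these spreads. On total counts the SD rose to between 1.14 (*Actc1*) and 2.36 (*Nppa*), and with *Rn45s* left out of the totals it was 0.846 and 2.25. *Myl7* on total counts fell with the share of *Rn45s* (r = -0.654, permutation p = 1e-05, adjusted p = 5e-05 over 5 relations, rho = -0.467, r = -0.565 without the 2 farthest lungs). With TMM it had r = -0.156 (permutation p = 0.29) and rho = -0.033. Neither total count (r = -0.015, permutation p = 0.92) nor the TMM factor (r = 0.216, permutation p = 0.14) had a relation to *Myl7* past the threshold.

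The lungs of CC012, CC030, CC028 and CC045 were at the upper end for most of these genes. Each was among the highest 5 of 47 in TPM for 6 of the 7 genes, with mean ranks of 3.43, 3.71, 4.0 and 4.57. CC024 was at the other end, in the lowest 5 for all 7 by TPM and for 6 after TMM scaling (mean ranks 46 and 45). CC029 was in the lowest 5 for 5 genes on both scales, with mean ranks of 41.1 by TPM and 45 after TMM scaling. The 20 top genes took 78.1% of the counts of CC024 and 20.4% of those of CC029. CC015 was in the lowest 5 for all 7 by TPM, with a mean rank of 45.9, but at 31 after TMM scaling. Its *Rn45s* share was the highest. CC059, with 56.6% of its counts from *Rn45s*, had a mean rank of 11.6 by TPM and 3.14 after TMM scaling.

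**Figure D3:**
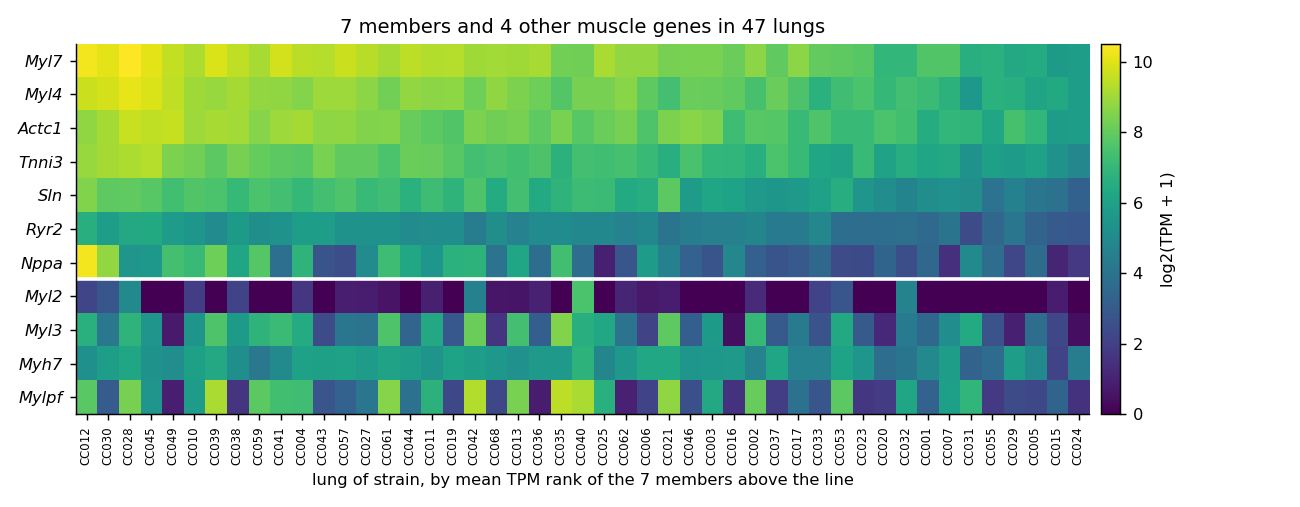
Level as log2(TPM + 1) of the 7 abundant genes (above the white line) and of *Myl2*, *Myl3*, *Myh7* and *Mylpf* (below it) in 47 lungs, ordered by the mean rank of the 7 genes. CC012 is at the left and CC024 at the right, *Nppa* departs most from the shared gradient, and *Mylpf* and *Myl3* are high in lungs at both ends.

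Across the 47 lungs the 7 genes rose and fell together. The 21 pairs had Pearson's r of TMM-scaled log2 CPM from 0.512 (*Myl4* and *Nppa*) to 0.964 (*Myl4* and *Tnni3*), with a median of 0.774. Without *Nppa* the 15 pairs ran from 0.725 to 0.964. These genes share libraries and, in the same muscle, would share cells, so r is not evidence of shared control. Taking *Myl7* as the reference, r was 0.894 with *Myl4* (rho 0.894), 0.888 with *Tnni3* (rho 0.883), 0.865 with *Sln* (rho 0.826), 0.856 with *Ryr2* (rho 0.884) and 0.774 with *Actc1* (rho 0.776), each with a permutation p of 1e-05 and an adjusted p of 0.0016 over 11317 genes. *Nppa* had r = 0.564 (rho 0.561, permutation p = 5e-05, adjusted p = 0.0057). Without CC029 and CC024, the lungs farthest from the median of *Myl7*, r with these 6 genes was between 0.525 and 0.88. Of all 11317 genes, 2.32% were positively related to *Myl7* at an adjusted p of at most 0.1, and the median r was 0.0637. With *Myh6* as the reference instead, r was 0.009 to 0.192 with the tested members, and 0 of 11318 genes passed that threshold (864 had an unadjusted permutation p under 0.05), with the counts near the floor given above. The 15 genes nearest to it had r from 0.404 to 0.49 with adjusted p of at least 0.57.

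**Figure D4:**
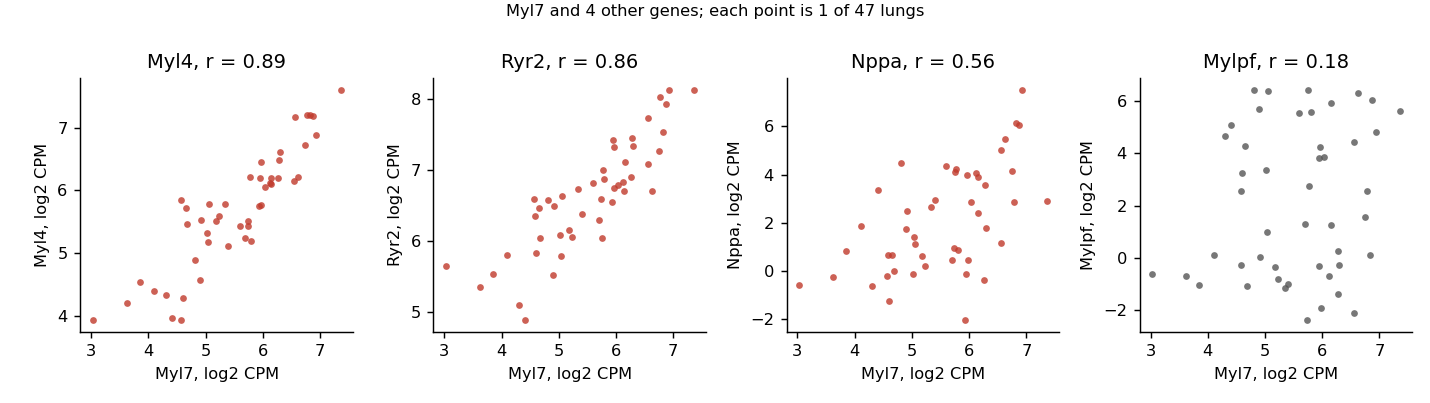
*Myl7* against *Myl4*, *Ryr2*, *Nppa* and the skeletal light chain *Mylpf* across 47 lungs, as TMM-scaled log2 CPM, 1 point per lung. Pearson's r is 0.89, 0.86, 0.56 and 0.18, and the *Mylpf* values spread over a wide range.

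The 15 genes outside the members with the highest r with *Myl7* across lungs (a choice of *Myl7* made after values were seen) were *Kcnj5* (0.907), *Rbm20* (0.896), *Mybphl* (0.884), *Fndc5*, *Tbx20*, *Tnnc1*, *Mybpc3*, *Myoz2*, *Casq2*, *Trim55*, *Mylk3*, *Fabp3*, *Phkg1*, *Sbk3* and *Srl* (0.737), each with a permutation p of 1e-05 and an adjusted p of 0.0016. *Kcnj5* encodes a subunit of the acetylcholine-gated potassium channel of atrium and pacemaker and ranged from 0.41 through 3.79 to 16 TPM. *Rbm20*, a splicing regulator of titin and *Ryr2* transcripts, ranged from 0.48 through 5.04 to 21.1 TPM. *Mybphl*, a myosin-binding protein of the atria, ranged from 4.73 through 21.8 to 85.0 TPM. The genes nearest to *Nppa* were *Fbln1* and *Mybpc3*, each with r = 0.679, and *Kank1* with 0.665 (permutation, adjusted p = 0.0057), where 1.92% of all genes were positively related to *Nppa* at an adjusted p of at most 0.1.

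Lists of related genes gave the same comparison over more of the cardiomyocyte. Their tissue calls, after TMM, stand beside the 31.2% of all genes called higher in lung than in liver and the 24.6% than in kidney. The limit given for the 10 genes holds for every list here and below. A list gene with low counts in liver and kidney enters the test through its lung level, so these tallies are descriptions. Of 18 other sarcomere genes 13 were tested, 12 were higher in lung than in liver and 11 than in kidney, where 1 was lower. Across lungs 11 of the 14 measured were related to *Myl7*, with a median r of 0.655. Cardiac troponin C *Tnnc1* ran from 12.0 through 64.4 to 227 TPM (r = 0.836), and the titin cap *Tcap* had a median of 108 TPM. *Nebl*, which encodes the Z-disc protein nebulette, was the most abundant of them with 187 TPM and had r = -0.112.
Of 12 calcium handling genes 10 were tested, and 7 were higher and 1 lower in lung than in liver, and 6 higher and 2 lower than in kidney. Cardiac calsequestrin *Casq2*, the calcium store of the sarcoplasmic reticulum, had a median of 17.3 TPM and r = 0.802, and *Hrc*, a calcium-binding partner of it, 16.2 TPM and r = 0.735. *Trdn* (0.591) and the pump gene *Atp2a2* (0.542) were also related, 4 of the 11 measured, with a median r of 0.344. The most abundant gene of the list, *S100a1*, had a median of 231 TPM in lung and 178 TPM in liver, whereas its log2 difference after TMM was -1.07, so its direction depended on the scaling.
Among 11 muscle energy genes 9 were tested, all higher in lung than in liver, whereas 3 were higher and 2 lower than in kidney. Across lungs 7 of 9 were related to *Myl7*, with a median r of 0.685, among them the fatty acid binding protein gene *Fabp3* (0.782) and *Ckmt2* (0.703), and not creatine kinase *Ckm* (0.41, adjusted p = 0.14).

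Regulators and the hormone pathway were less uniform. Of 15 cardiac transcription factors 6 were tested, and 5 were higher in lung than in each other tissue. *Tbx20* (0.842) and *Ankrd1* (0.675) were related to *Myl7*, whereas *Tbx5*, at a median of 33.5 TPM, had r = -0.215 and *Gata6* -0.106. *Nkx2-5* held 0 to 12 counts with a median of 2. Of 11 channel and gap junction genes 5 were tested, 4 were higher in lung than in liver, 1 was higher and 1 lower than in kidney, and *Kcnj5* was the 1 of 4 related to *Myl7*. In the natriuretic peptide pathway, of 8 genes 3 were tested, 2 were higher in lung than in liver and 3 than in kidney. The receptor genes *Npr1*, at a median of 109 TPM, and *Npr2*, at 71.1 TPM, had r of -0.114 and -0.103 with *Myl7*, and 0 of 4 genes were related (0 also at an unadjusted permutation p under 0.05).

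**Figure D5:**
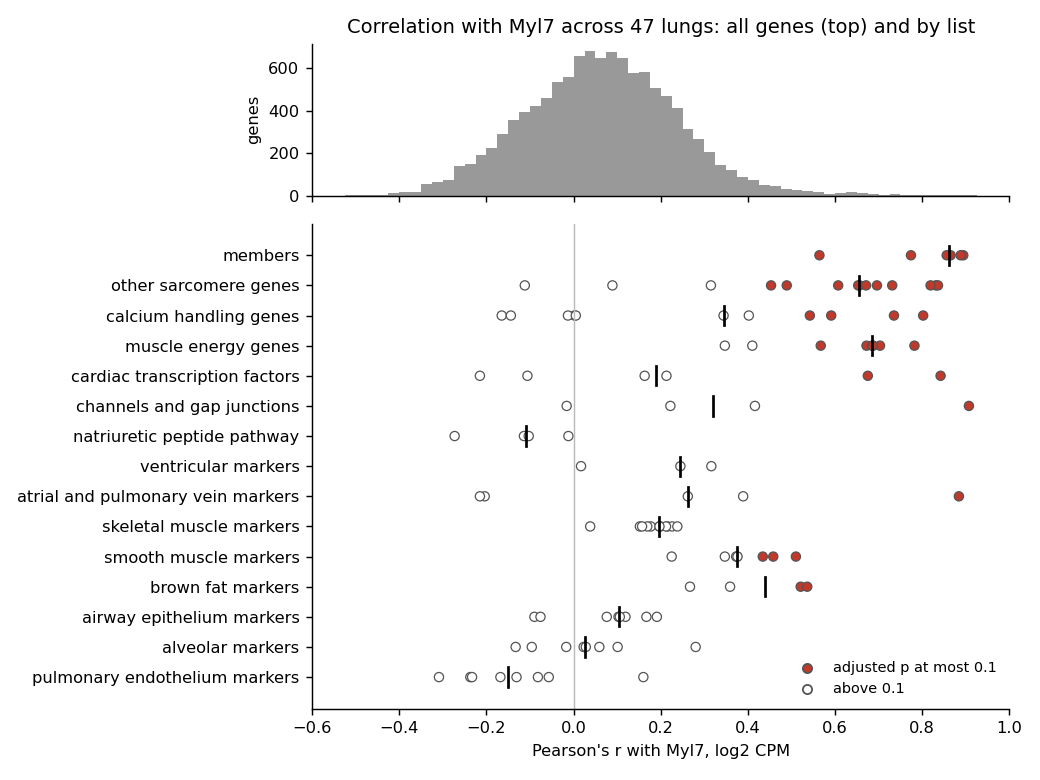
Pearson's r with *Myl7* across 47 lungs for all 11317 genes (histogram) and for the genes of each list whose lung mean was 1 CPM or more, filled where the adjusted p is at most 0.1, with the list median as a bar. Most sarcomere and energy genes are filled, and 0 of the skeletal muscle, alveolar, airway and endothelial markers are.

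Markers of other heart and muscle cells were measured beside these. Of 6 ventricular markers 3 were tested and all 3 were higher in lung than in either tissue. *Myl3* and *Myh7*, with medians of at most 0.22 TPM in liver and kidney, entered through lung and had to differ. The summed level of all 6 ventricular markers was 9.95 through 86.8 to 429 TPM in lung, beside 219 through 1401 to 4753 TPM for the 10 genes themselves. The sum includes *Myl3* and *Myh7*, which slow skeletal muscle also uses, so it is not a measure of ventricular muscle. *Irx4*, a factor specific to ventricle, never passed 1 count. *Myl3* had r = 0.316 (adjusted p = 0.38) and *Myh7* r = 0.245 (adjusted p = 0.56) with *Myl7*, and 0 of 3 measured were related (1 at an unadjusted permutation p under 0.05).
Of 11 atrial and pulmonary vein markers 6 were tested, 5 were higher and 1 lower in lung than in liver, 3 were higher and 1 lower than in kidney, and *Mybphl* was the 1 of 5 related to *Myl7*. The list summed to a median of 259 TPM in lung, below 1005 in liver and 606 in kidney. Its most abundant gene, *Stard10*, had medians of 111 TPM in lung, 1001 in liver and 584 in kidney. *Dkk3* had 68.8, 2.47 and 15.2 TPM. *Shox2* had no count in any lung, and *Gja5* at most 12. *Bmp10*, a growth factor gene of the right atrium, was at 0 in 36 lungs and passed 3 counts in 5, with 220 counts in CC039. Of 8 pacemaker markers 2 were tested and higher in lung than in either tissue, the list summed to at most 12.6 TPM, and 0 of 3 were related (2 at that unadjusted p).

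Skeletal muscle RNA varied over a wider range. Of 14 markers 8 were tested, 7 were higher in lung than in liver and 8 than in kidney. The summed level in lung ran from 6.64 through 91.4 to 3913 TPM, and *Mylpf* was at 20 TPM or more in 22 lungs and below 5 TPM in 16. Across lungs the 12 measured markers had r with *Myl7* from 0.038 to 0.238, and 0 passed the threshold or had an unadjusted permutation p under 0.05 (*Mylpf* r = 0.177, adjusted p = 0.7). In the 25 lungs below 20 TPM of *Mylpf*, *Myl7* ran from 51.7 through 406 to 1077 TPM and *Ryr2* from 6.32 through 24.6 to 58.5 TPM, and the median r among the 7 genes was 0.82, beside 0.77 in all lungs. This cut was set after seeing the data and is in TPM, which is lower where *Rn45s* is high. *Mylpf* was at 9.59 TPM in CC015 and 43.8 TPM in CC045, but at a log2 CPM of 2.54 and 2.55 after TMM scaling. The part of skeletal muscle in the level of the 7 genes was not tested.
Of 10 smooth muscle markers 8 were tested, all higher in lung than in both other tissues, and 3 of 8 were related to *Myl7* (*Des* 0.51, *Cnn1* 0.458 and *Actg2* 0.434). The 8 had r from 0.225 to 0.51 with a median of 0.376, and 7 had an unadjusted permutation p under 0.05. *Des* encodes desmin, which striated muscle also uses. Of 8 brown fat markers 6 were tested, 4 were higher and 1 lower in lung than in liver, 1 was higher and 4 were lower than in kidney, and 2 of 4, *Adipoq* (0.536) and *Cidea* (0.521), were related to *Myl7*. The 4 had a median r of 0.44 with *Myl7*, and 3 had an unadjusted permutation p under 0.05. The summed brown fat level was 4.6 through 39.7 to 239 TPM.
Markers of airway (0 of 8), alveolus (0 of 8), endothelium (0 of 8), thymus (0 of 2), oesophagus (0 of 5), cartilage (0 of 1) and red blood cells (0 of 2) did not pass the threshold with *Myl7*, with median r between -0.15 and 0.287, and 1 endothelial gene of all these had an unadjusted permutation p under 0.05. With *Nppa*, 0 of 5 oesophagus markers passed the threshold, and all 5 had an unadjusted permutation p under 0.05 (r from 0.299 to 0.435). Of 12 skeletal muscle markers 0 passed with *Nppa* (r from 0.183 to 0.327), 3 had an unadjusted permutation p under 0.05 by r and 8 by rho. The part of dissection, and of the other tissues these markers stand for, in the level and spread of the 10 genes was not tested.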

How the data were processed

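Lung, liver and kidney of 47 mice gave 141 libraries of 50-base single-end reads. Per the submitters' processing notes and the study's methods, reads were aligned with STAR 2.5.3a to strain-specific versions of mm9 (Build37) with RefSeq transcripts and quantified with RSEM. The authors deposited an expected count per gene and library (25 values were not whole, and all were rounded here). They also deposited TPM values, and FPKM values that served for 1 alternative. There were 0 columns left unused. Sequencing batch is in the study's model but not among the labels, and was not fitted.

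Counts were scaled by TMM (edgeR 4.0.16) and compared between tissues by the voom method of limma 3.58.1 in R 4.3.3, the mouse being the replicate block, Benjamini-Hochberg adjustment over 12127 genes and calls where q was 0.1 or less and the log2 fold change 1 or more in size. The methods of the study give q 0.01 and its results 0.1. The 3 libraries of a strain come from 1 animal, and their deviations from tissue means had a median correlation of 0.167 to 0.212, against -0.00612 to -0.00474 between animals. Log2 CPM used a prior count of 1, and correlations 100000 permutations (Python 3.11.15, scipy 1.17.1) over genes whose lung mean was 1 CPM or more. TPM ratios used a pseudocount of 0.1. A count of 3 or fewer was read as unresolved, a floor for counting error alone. The tests were run on simulated data with known changes first.

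Named were the members, most partners of the isoform pairs and some of the most abundant 3 genes of each list. The 15 genes nearest to *Myh6* were planned to be named but are given only by their range of r. Those nearest to *Myl7* and further list genes were added after their values were seen. The members and lists were chosen with earlier results of these data known. Promoters came from RefSeq (GRCm38.p6), gene positions from GENCODE vM1 on NCBIM37. Alternatives covered the replicate block, scaling, filter, test (DESeq2 1.42.0 and edgeR), unit, thresholds, samples and rounding. Leaving out mice whose lung held *Mylpf* or *Myl2*, and the strains CC031, CC032, CC041 and CC042, *Rn45s*-free totals and *Myl7* as reference were added after seeing the data.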

Additional observations from a re-analysis of the deposited data

How the results depend on the processing

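The counts of members called higher in lung than in liver and in kidney stayed at 6 to 9 under every alternative run, and were 6 and 6, with 3 between liver and kidney, with no replicate block as with it. Median r among the 7 abundant genes ran from 0.75 to 0.89, and the median SD of the members from 0.78 to 1.18 (main 0.77 and 0.92). Liver against kidney depended most on the processing. A fit of only both tissues gave 1 member called in place of 3, because *Ryr2* alone passed the filter there and the others were not tested. Between liver and kidney, scaling by total counts, log2(TPM + 1) and limma's treat each gave 1 called as well. There the log2 difference turned for *Myl4* (-0.66 on total counts, -0.35 with log2(TPM + 1), -0.7 with log2(TPM + 0.1)), for *Myl7* (-0.76, -0.45 and -0.76, and -0.06 with edgeR and -0.02 with DESeq2) and for *Tnni3* (-0.71, -0.29 and -0.76, -0.2 with edgeR, -0.11 with DESeq2, and -0.02 without the strains with *Mylpf* at 20 TPM or more). The cause was not tested, beyond the shift of the median of all genes by -0.88 on total counts. The median r of *Myh6* with the other members, 0.13, became 0.23 with a prior count of 0.25, 0.34 on total counts, 0.0 without the 2 lungs farthest from the median of *Myl7*, and 0.77 with *Myl7* in its place. With no filter on low counts 8 members were called higher in lung than in liver and 9 than in kidney. *Tnnt2* was then called lower in lung than in liver although every liver held 0 counts of it, so calls at such counts carry no information. Counts of *Pln*, *Myh6* and *Tnnt2* lie near the floor of 3, and the cause was not tested.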
